A study of Homo sapiens with 14 samples.

Results

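The 9 genes described here encode the CD3 chains of the T cell receptor (CD3D, CD3E, CD3G and CD247) and the kinases and adaptors that act first when it is engaged (LCK, FYN, ZAP70, LAT and LCP2). They were chosen by name, and all 9 were found among the 55075 genes of each count table. RNA was sequenced from CUTLL1 and CEM, human T cell acute lymphoblastic leukemia lines grown in suspension in RPMI, after infection with retroviruses that express a short hairpin. CUTLL1 had 3 samples with the hairpin against JMJD3 (the demethylase gene KDM6B), 2 with the hairpin against UTX (the demethylase gene KDM6A) and 3 with the control hairpin against Renilla luciferase, a gene that human cells lack. CEM had 2 samples of each. The 3 groups of a line, called shJMJD3, shUTX and shRenilla here, were all infected with a hairpin virus, and no uninfected cells were among the samples. The labels name no more than 1 hairpin per target, so an effect on the target and an effect of the hairpin on other transcripts cannot be told apart.

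The T cell receptor has no catalytic activity of its own. Its antigen-binding chains reach the cell surface only together with the CD3 chains, whose tails carry tyrosine motifs. LCK and FYN, kinases of the Src family, phosphorylate those tyrosines, ZAP70 docks on them and phosphorylates LAT and LCP2, and these scaffolds assemble the complex that starts the calcium, Ras and NF-kB branches. The genes are switched on as thymocytes mature, and in T cell leukemia their levels help to place the stage at which the blasts are arrested. JMJD3 and UTX are demethylases of histone H3 lysine 27, whose methylation Polycomb complexes place on silent genes, often at promoters rich in CpG.

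The deposited tables hold 1 raw count per gene, hairpin and line, with no separate replicates, so each level below is a pooled value with no spread between cultures. Totals ran from 70280185 to 104190473 counts per column in CEM and from 101792401 to 258014046 in CUTLL1. The CUTLL1 shRenilla column exists in a larger version, paired by the authors with shJMJD3, and a smaller version of 144394369 counts, paired with shUTX. The larger was at or above the smaller in every gene, and their difference is called the remainder. The CUTLL1 columns also differed in kinds of RNA. The share of counts in small non-coding RNA was 11.7% in shJMJD3 and 2.59% in shUTX, against 9.35% in the larger shRenilla column, 1.98% in the smaller and 18.7% in the remainder, while no CEM column exceeded 0.117%. All 5 T cell markers (CD2, CD5, CD7, TRAC and TRBC2) had counts in every column, and summed to 2640 to 3497 CPM (raw counts per 1000000 counts of the column) in the CUTLL1 hairpin columns and 2246 to 2359 in CEM. MS4A1 of the B cell markers and NCR1 of the NK cell markers were at 0 throughout, but CD79A, a B cell receptor gene, reached 34.4 CPM in shJMJD3 and 64.5 in shUTX, against 74.7 in shRenilla, in CEM. NKG7 of the NK cell markers had 11.5 to 17 CPM in the CUTLL1 hairpin columns and 14 to 29.3 CPM in CEM. The myeloid and erythroid marker lists summed to no more than 6.46 and 0.546 CPM in any hairpin column.

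Each hairpin column was low for its target. KDM6B had 10.9 CPM in shJMJD3, against 18.8 in shRenilla, in CUTLL1, and 52.2 CPM in shJMJD3, against 206 in shRenilla, in CEM. KDM6A had 19.3 CPM in shUTX, against 43 in the smaller shRenilla column, in CUTLL1, and 51.5 CPM in shUTX, against 136 in shRenilla, in CEM. KDM6B was less reduced in CUTLL1 (log2 ratio -0.63) than in CEM (-1.67), a difference that was not tested. In CEM the JMJD3 hairpin column was also lower for KDM6A, with a log2 ratio of -0.34, and in CUTLL1 the UTX hairpin column was higher for KDM6B, at 0.43.

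Promoter sequences are shown for the 4 genes that stood furthest from shRenilla with the JMJD3 hairpin in CEM, 2 of them higher (CD3D and CD247) and 2 lower (FYN and ZAP70), because Polycomb methylation, on which both enzymes act, is often found at CpG-rich promoters. They are RefSeq windows of 300 bases on GRCh38.p14, from 250 bases before to 50 after the first listed start of each gene, read 5′ to 3′ on the strand of the gene. Capitals mark each CpG.
CD3D, chr11:118342656-118342955, minus strand: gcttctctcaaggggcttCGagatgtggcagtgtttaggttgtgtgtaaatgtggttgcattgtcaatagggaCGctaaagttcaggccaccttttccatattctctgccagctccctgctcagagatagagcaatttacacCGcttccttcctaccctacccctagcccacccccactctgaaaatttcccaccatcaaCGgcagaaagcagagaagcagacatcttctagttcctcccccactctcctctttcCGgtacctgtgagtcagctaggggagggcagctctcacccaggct
CD247, chr1:167518480-167518779, minus strand: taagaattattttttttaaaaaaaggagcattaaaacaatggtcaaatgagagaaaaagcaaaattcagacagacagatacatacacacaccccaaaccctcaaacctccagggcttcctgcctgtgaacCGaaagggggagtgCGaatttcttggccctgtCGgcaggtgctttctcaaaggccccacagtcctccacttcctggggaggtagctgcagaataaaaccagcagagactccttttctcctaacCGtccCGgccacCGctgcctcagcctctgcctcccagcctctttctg
FYN, chr6:111873403-111873702, minus strand: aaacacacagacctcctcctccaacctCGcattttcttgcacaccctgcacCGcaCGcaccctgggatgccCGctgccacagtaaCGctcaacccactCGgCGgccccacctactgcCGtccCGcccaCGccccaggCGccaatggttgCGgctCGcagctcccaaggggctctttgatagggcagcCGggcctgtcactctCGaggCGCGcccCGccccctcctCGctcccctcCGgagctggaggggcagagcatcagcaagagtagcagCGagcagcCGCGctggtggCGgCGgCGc
ZAP70, chr2:97713326-97713625, plus strand: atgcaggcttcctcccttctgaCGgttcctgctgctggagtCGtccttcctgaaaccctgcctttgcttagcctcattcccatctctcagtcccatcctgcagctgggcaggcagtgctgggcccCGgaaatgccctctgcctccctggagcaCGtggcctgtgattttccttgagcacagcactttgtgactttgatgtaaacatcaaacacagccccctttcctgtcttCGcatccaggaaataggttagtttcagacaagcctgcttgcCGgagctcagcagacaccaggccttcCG
The CD3D window held 5 CpG, that of CD247 held 6 and that of ZAP70 held 7, against a median of 14 over all 35116 windows of the reference table. The FYN window held 26, more than 69.9% of all windows, and a neighbouring start of FYN lay in a window with 55. Other listed starts of FYN lay in windows with 8 and 2, and which start these cells use was not measured. Of the 9 genes, 7 had windows in the table, 14 in all, and 11 of the 14 had fewer CpG than the median. CD3E and CD3G had no entry. By the windows shown, the 2 genes that were higher were thus both CpG-poor, and of the 2 that were lower 1 was CpG-poor and 1 CpG-rich. These counts describe the reference sequence only, and histone marks were not measured in these samples.

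Of the CD3 chains, CD3D and CD247 stood higher with the JMJD3 hairpin in CEM. CD3D encodes the delta chain, which pairs with epsilon in the assembling receptor. CD3D had 669 CPM in shJMJD3 and 525 CPM in shUTX, against 507 CPM in shRenilla, in CEM. In CUTLL1, CD3D had 771 CPM in shJMJD3 and 945 CPM in shUTX, against 810 CPM in the larger shRenilla column and 1014 CPM in the smaller. In CPM, the CEM shJMJD3 column was the highest of its line, whereas the CUTLL1 shJMJD3 column was the lowest of the hairpin columns there. On the scale given next, CUTLL1 shJMJD3 was not below the larger shRenilla column. Scaled by trimmed mean of M values (TMM), which sets aside a shift shared by most genes, the log2 ratio of CD3D between shJMJD3 and shRenilla was 0.71 in CEM (95% interval 0.69 to 0.73), but 0.08 in CUTLL1 (0.07 to 0.09). These intervals, exact binomial ones, cover counting error only. In bulk RNA of a cell line, a change in every cell and a larger change in some of its cells cannot be told apart.

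CD247 encodes the zeta chain, whose tails carry most of the receptor's tyrosine motifs. CD247 had 186 CPM in shJMJD3 and 90.1 CPM in shUTX, against 91.6 CPM in shRenilla, in CEM. In CUTLL1, CD247 had 106 CPM in shJMJD3 and 122 CPM in shUTX, against 97.4 CPM in the larger shRenilla column and 122 CPM in the smaller. Only the CEM shJMJD3 column stood apart from the rest of its line. The log2 ratio of shJMJD3 to shRenilla was 1.33 in CEM (1.30 to 1.37) and 0.28 in CUTLL1 (0.25 to 0.30). The CEM ratio was the furthest from 0 among the 9, whereas with column totals ZAP70 (-1.44) and FYN (-1.10) were further from 0 than CD247 (1.02).

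CD3E and CD3G, the epsilon and gamma chains, had ratios near 0 with either hairpin. CD3E had 991 CPM in shJMJD3 and 1181 CPM in shUTX, against 1175 CPM in shRenilla, in CEM. In CUTLL1, CD3E had 332 CPM in shJMJD3 and 430 CPM in shUTX, against 350 CPM in the larger shRenilla column and 443 CPM in the smaller. The epsilon chain was thus near its control in all hairpin columns, and its log2 ratio of shJMJD3 to shRenilla was 0.07 in CEM and 0.08 in CUTLL1. CD3G had 266 CPM in shJMJD3 and 285 CPM in shUTX, against 296 CPM in shRenilla, in CEM. In CUTLL1, CD3G had 322 CPM in shJMJD3 and 432 CPM in shUTX, against 420 CPM in the larger shRenilla column and 503 CPM in the smaller. The gamma chain had a log2 ratio of shJMJD3 to shRenilla of 0.15 in CEM and -0.23 in CUTLL1, on opposite sides of 0. CD3D and CD3G are neighbours that point away from each other, with annotated starts 1600 bases apart in GENCODE release 29, yet in CEM the ratio of CD3D exceeded that of CD3G (0.71 against 0.15).

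**Figure D1:**
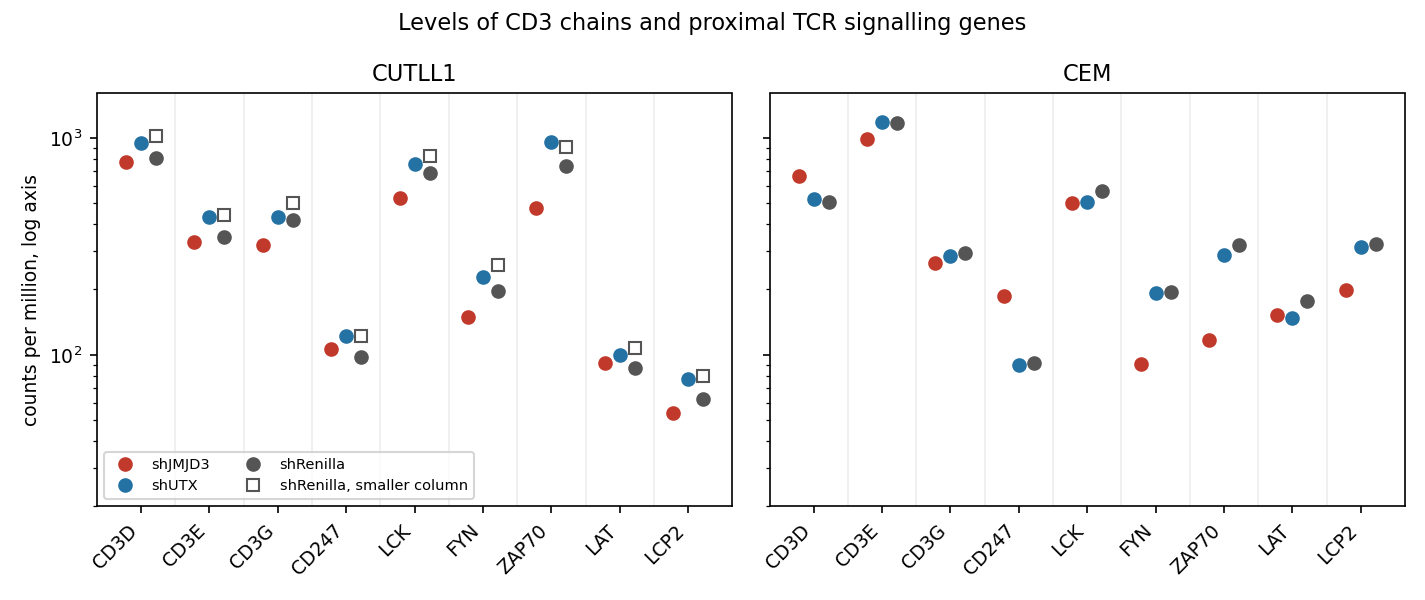
CPM (log axis) of the 9 genes in CUTLL1 (left) and CEM (right), 1 pooled value per hairpin, with the smaller CUTLL1 shRenilla column as an open square. In CEM the shJMJD3 point stands above both others for CD3D and CD247 and well below both for FYN, ZAP70 and LCP2, while shUTX lies near shRenilla.

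Among the kinases, ZAP70 and FYN were at least 1.5-fold lower with the JMJD3 hairpin in CEM, and in CUTLL1 all 3 kinases had ratios below 0 that stayed within that fold. ZAP70 binds the phosphorylated tails of the CD3 chains and is the kinase that passes the signal on to the adaptors. ZAP70 had 117 CPM in shJMJD3 and 289 CPM in shUTX, against 319 CPM in shRenilla, in CEM. In CUTLL1, ZAP70 had 474 CPM in shJMJD3 and 955 CPM in shUTX, against 741 CPM in the larger shRenilla column and 910 CPM in the smaller. The shJMJD3 column was the lowest of the hairpin columns in both lines. The log2 ratio of shJMJD3 to shRenilla was -1.13 in CEM (-1.17 to -1.10) and -0.49 in CUTLL1 (-0.50 to -0.48), and that of shJMJD3 to shUTX was -1.06 in CEM and -0.83 in CUTLL1.

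FYN is the Src family kinase that T cells use beside LCK. FYN had 91 CPM in shJMJD3 and 192 CPM in shUTX, against 195 CPM in shRenilla, in CEM. In CUTLL1, FYN had 149 CPM in shJMJD3 and 229 CPM in shUTX, against 196 CPM in the larger shRenilla column and 260 CPM in the smaller. Its log2 ratio of shJMJD3 to shRenilla was -0.79 in CEM (-0.83 to -0.75) and -0.24 in CUTLL1 (-0.27 to -0.22). LCK, the kinase that the coreceptors CD4 and CD8 bring to the receptor, had 502 CPM in shJMJD3 and 507 CPM in shUTX, against 566 CPM in shRenilla, in CEM. In CUTLL1, LCK had 530 CPM in shJMJD3 and 755 CPM in shUTX, against 687 CPM in the larger shRenilla column and 823 CPM in the smaller. LCK had a log2 ratio of shJMJD3 to shRenilla of 0.14 in CEM and -0.22 in CUTLL1, on opposite sides of 0 as for CD3G. Per kilobase of transcript, LCK was 9.46 times FYN in shJMJD3 and 4.53 times FYN in shUTX, against 4.97 times in shRenilla, in CEM. The same quotient in CUTLL1 was 6.11 in shJMJD3 and 5.64 in shUTX, against 6.01 in the larger shRenilla column, so the CEM shJMJD3 column had the highest quotient.

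Of the adaptors, LAT stayed near its control and LCP2 was lower in CEM. LAT is the membrane scaffold that ZAP70 phosphorylates. LAT had 152 CPM in shJMJD3 and 147 CPM in shUTX, against 177 CPM in shRenilla, in CEM. In CUTLL1, LAT had 91.4 CPM in shJMJD3 and 99.9 CPM in shUTX, against 87.1 CPM in the larger shRenilla column and 107 CPM in the smaller. Its log2 ratio of shJMJD3 to shRenilla was 0.09 in CEM and 0.22 in CUTLL1. LCP2 encodes the cytosolic adaptor that joins LAT to VAV1 and the phospholipase PLCG1. LCP2 had 199 CPM in shJMJD3 and 314 CPM in shUTX, against 325 CPM in shRenilla, in CEM. In CUTLL1, LCP2 had 54.1 CPM in shJMJD3 and 77.6 CPM in shUTX, against 62.3 CPM in the larger shRenilla column and 80 CPM in the smaller. LCP2 was lower with the JMJD3 hairpin in CEM, at a log2 ratio of -0.40 (-0.42 to -0.37), and near its control in CUTLL1, at -0.05 (-0.09 to -0.01). Exons of LAT and of LCP2 overlap other annotated genes in GENCODE release 29, so their counts are uncertain, because none of the sources used here gives the counting rule.

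Counted at a fold of 1.5 or more, with at least 50 counts in either column, the JMJD3 hairpin set apart 4 of the 9 genes from shRenilla in CEM, 2 higher (CD3D and CD247) and 2 lower (FYN and ZAP70). In CEM, 46.3% of all 16998 genes measured lay at least 1.5-fold apart in that comparison, 22.4% higher and 23.9% lower, so 4 of 9 is near the share over all genes. In CUTLL1, 0 of the 9 lay that far apart, against 15.9% of 19772 genes, 8.63% higher and 7.23% lower. The median log2 ratio of the 9 was 0.09 in CEM and -0.05 in CUTLL1, where the medians of all genes were -0.02 and 0.00. CD247 and ZAP70, whose products bind each other, stood at 1.33 and -1.13 on the log2 scale in CEM, while CD3E, CD3G, LCK and LAT lay between 0.07 and 0.15. Dividing by column totals in place of TMM shifted every log2 ratio of shJMJD3 to shRenilla by -0.31 in CEM and -0.15 in CUTLL1. On that scale the 4 genes past 1.5-fold in CEM were 1 higher and 3 lower, as CD3D came to 0.40 and was no longer past it, while LCP2 came to -0.71 and was. ZAP70 passed it in CUTLL1 too, and the small positive ratios of CD3D (CUTLL1), CD3E (both lines) and CD3G, LCK and LAT (CEM) turned negative.

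The UTX hairpin columns were within 1.5-fold of shRenilla for all 9 genes. In CUTLL1, shUTX was set against the smaller shRenilla column, as the authors paired them. None of the 9 lay 1.5-fold apart, against 5.77% of 16886 genes in CUTLL1 (3.5% higher and 2.27% lower) and 7.45% of 16791 genes in CEM (3.72% higher and 3.73% lower). On the log2 scale the furthest in CEM was LAT, at -0.20 (-0.23 to -0.16), while CD3G was the furthest in CUTLL1, at -0.18 (-0.20 to -0.16). The remaining ratios of shUTX to shRenilla lay between -0.14 and 0.11. ZAP70, the gene furthest down with the JMJD3 hairpin, was at -0.08 in CEM and 0.11 in CUTLL1.

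Set directly against shUTX, shJMJD3 was at least 1.5-fold lower in CUTLL1 for 1 gene, ZAP70, where 27.5% of 18287 genes lay that far apart (17.3% higher and 10.2% lower) and the median of all genes was -0.12. In CEM, CD3D (0.59) and CD247 (1.30) were higher and FYN (-0.83) and ZAP70 (-1.06) lower by that fold, 4 of 9, against 45.5% of 16229 genes (22.2% higher and 23.3% lower). CD3D was just past that fold. With column totals CD3D came to 0.35 and fell short of it, and LCP2 came to -0.65 and passed it. The other 5 genes had log2 ratios in CEM from -0.41 (LCP2) to 0.29 (LAT). Both hairpin comparisons with shJMJD3 use the same shJMJD3 column, so their likeness is not separate evidence.

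**Figure D2:**
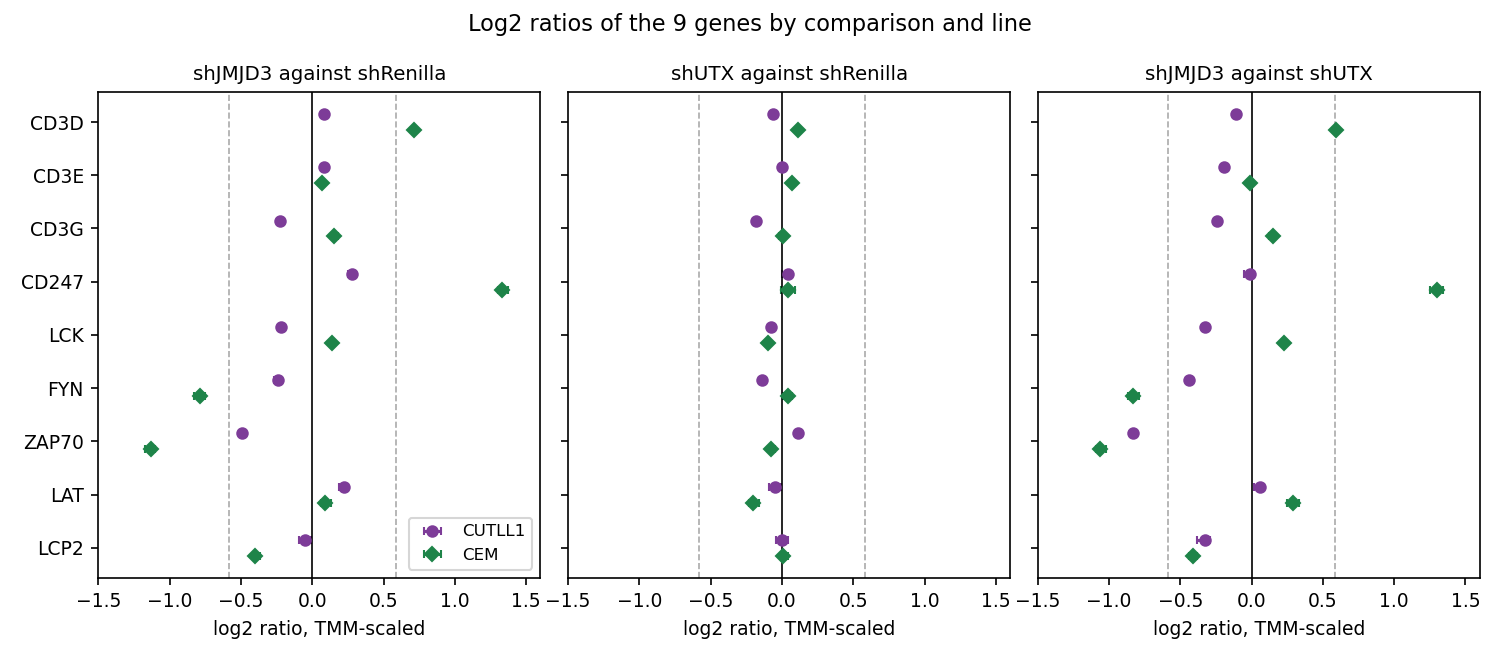
Log2 ratios (TMM-scaled) of the 9 genes in CUTLL1 (circles) and CEM (diamonds) for each comparison, with exact binomial 95% intervals that are mostly narrower than the symbols. Dashed lines mark 1.5-fold. In the outer panels CD3D and CD247 lie to the right and FYN and ZAP70 to the left in CEM, and in the middle panel all points lie near 0.

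Across lines, with the line as a block and the 2 lines as the only replicates, edgeR's quasi-likelihood test called none of the 9 genes in any hairpin comparison at a Benjamini-Hochberg adjusted p under 0.05. It called 0 genes of 24003 for shJMJD3 against shRenilla (0% of those tested), where 936 had an unadjusted p under 0.05 and DESeq2 called 110, none of the 9 among them. It called 0 of 23112 for shUTX against shRenilla (0%), with 39 under 0.05 unadjusted and 2 by DESeq2. For shJMJD3 against shUTX it called 0 of 24003 (0%), with 1945 under 0.05 unadjusted and 286 by DESeq2, again none of the 9. Between shJMJD3 and shRenilla the lowest p of the 9 was that of ZAP70, whose log2 ratio was -0.82 (SE 0.27, edgeR adjusted p = 0.8), lower in both lines. Its unadjusted p in that fit was 0.0297. FYN had -0.51 (SE 0.23, edgeR adjusted p = 0.8), below 0 in both lines, but above 0 in CUTLL1 against the remainder of the control. CD247 had 0.85 (SE 0.37, edgeR adjusted p = 0.8) and CD3D 0.41 (SE 0.30, edgeR adjusted p = 0.8), each higher in both lines, with CD3D turning lower in CUTLL1 on the scale of column totals. Against shUTX, shJMJD3 gave ZAP70 a log2 ratio of -0.93 (SE 0.27, edgeR adjusted p = 0.582) and FYN -0.63 (SE 0.23, edgeR adjusted p = 0.608). KDM6B itself, the target, had an adjusted p of 0.8 for shJMJD3 against shRenilla in the edgeR fit (log2 ratio -1.15, SE 0.30), so that fit did not call the knockdown either. In the authors' deposited table for shJMJD3 against shRenilla, all 9 genes carry the mark for p under 0.001 in each line, which compares the reads of these libraries and not the conditions.

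The parts of the CUTLL1 control differed from each other in the 9 genes. In the remainder of the shRenilla column all 9 were lower than in the smaller column. How many of all genes were lower there was not counted, so this is not read as particular to the 9. The TMM-scaled log2 ratios of the remainder to the smaller column ran from -0.63 (FYN) to -0.12 (LCK), where the widest ratio of shJMJD3 to the larger column was -0.49 (ZAP70). Between those parts of the control, 39.8% of 18546 genes lay at least 1.5-fold apart, among them 1 of the 9, FYN. FYN had 114 CPM in the remainder and 260 CPM in the smaller column. Accordingly the log2 ratio of shJMJD3 for FYN was -0.44 against the smaller column and 0.19 against the remainder, and that for LCP2 was -0.20 and 0.25, so neither gene kept its side. CD3D (-0.03 and 0.29) and CD3E (-0.05 and 0.32) did not either. ZAP70 was lower in shJMJD3 against both, at -0.58 and -0.34, as were CD3G (-0.28 and -0.15) and LCK (-0.27 and -0.15). CD247 (0.16 and 0.49) and LAT (0.14 and 0.36) were higher against both. In CPM, without TMM, ZAP70 alone of the 9 kept its side, at 474 in shJMJD3, against 910 in the smaller column and 526 in the remainder, since the CPM of the other 8 in shJMJD3 lay between those of the control parts. For shUTX, the TMM-scaled log2 ratios ran from -0.18 (CD3G) to 0.11 (ZAP70) against the smaller column and from -0.06 (CD3G) to 0.49 (FYN) against the remainder, with LCP2 at 0.44, CD3E and CD247 at 0.37 and ZAP70 at 0.34. Against the larger column they ran from 0.01 (CD3G) to 0.33 (ZAP70). The shares of small non-coding RNA given above, 11.7% in shJMJD3, 1.98% in the smaller control column and 18.7% in the remainder, moved with these values, and their part in them was not tested.

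**Figure D3:**
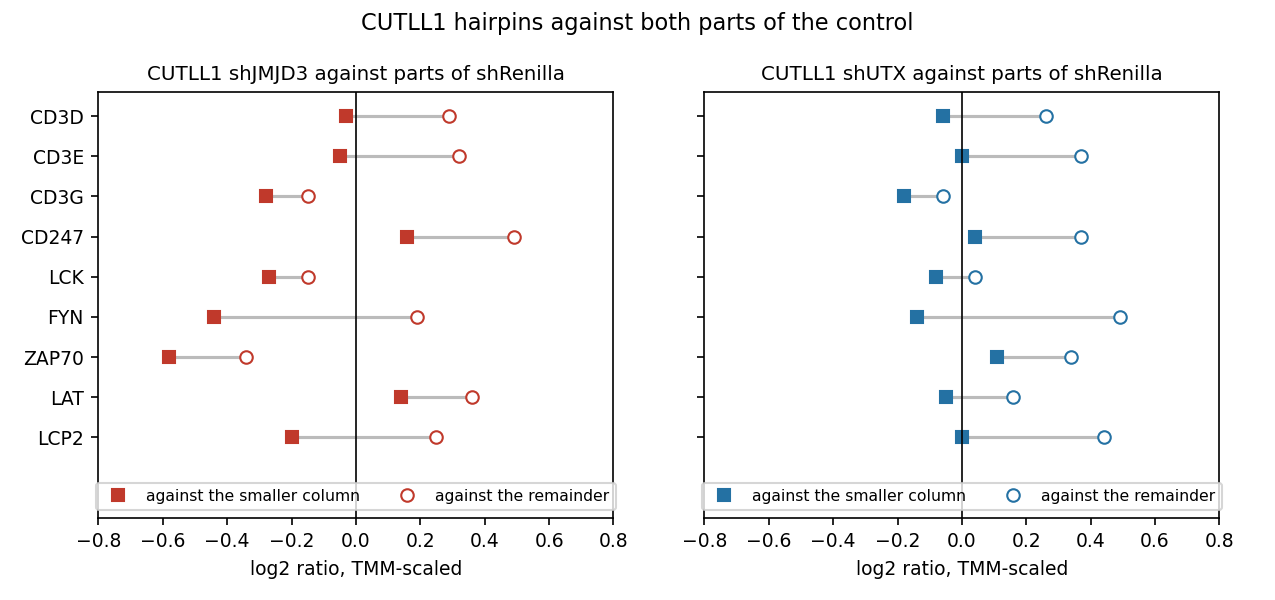
TMM-scaled log2 ratios of CUTLL1 shJMJD3 (left) and shUTX (right) to the smaller shRenilla column (squares) and to the remainder of the larger one (open circles), with a line joining the values of each gene. For shJMJD3, ZAP70, LCK and CD3G stay left of 0 and CD247 and LAT right of it, while CD3D, CD3E, FYN and LCP2 cross 0; in CPM, without TMM, only ZAP70 keeps its side.

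Between the lines, 5 of the 9 genes differed past the test. A quasi-likelihood fit in edgeR, with the hairpin as a block and 3 columns per line, put 36.8% of 24003 genes under an adjusted p of 0.05 between CUTLL1 and CEM, 19% higher and 17.8% lower in CUTLL1. ZAP70 was higher in CUTLL1, with TMM-scaled log2 CPM of 9.15 to 9.98 there and 6.91 to 8.04 in CEM, a log2 ratio of 1.96 (SE 0.23, edgeR adjusted p = 0.00563). CD3D was higher in CUTLL1 at a log2 ratio of 0.88 (SE 0.24, edgeR adjusted p = 0.0447) and CD3G at 0.77 (SE 0.19, edgeR adjusted p = 0.0347). CD3E was lower in CUTLL1, with log2 CPM of 8.56 to 8.83 there and 9.92 to 9.99 in CEM, a log2 ratio of -1.29 (SE 0.20, edgeR adjusted p = 0.0117). LCP2 was lower in CUTLL1 at -1.79 (SE 0.17, edgeR adjusted p = 0.00367). Each of these 5 differences held in 3 of 3 hairpin columns, which was not counted over all genes.

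LCK (0.62, SE 0.22, edgeR adjusted p = 0.0794), FYN (0.63, SE 0.19, edgeR adjusted p = 0.0524) and LAT (-0.47, SE 0.16, edgeR adjusted p = 0.0777) did not pass, although their columns did not overlap between the lines. The share of all genes whose columns did not overlap was not counted, so non-overlap is not read as particular to these genes. CD247 overlapped, with log2 CPM of 6.72 to 7.01 in CUTLL1 and 6.24 to 7.58 in CEM, where the shJMJD3 column was above all CUTLL1 columns and the shUTX and shRenilla columns below them. The calls changed when a hairpin was left out, over all genes as among the 9. Such fits also leave fewer residual degrees of freedom, and the part of that in the changes was not tested. Without shRenilla only ZAP70 and LCP2 passed, where 2004 of all 21128 genes did. There the log2 ratios of CD3D (0.81), CD3E (-1.24) and CD3G (0.72) had moved little. Without shUTX CD3E, ZAP70 and LCP2 passed, where 7744 of 23914 genes did. Without shJMJD3 8 of the 9 passed, where 10304 of 22397 genes did. With column totals in place of TMM, CD3D and CD3G no longer passed and LAT did, 4 of the 9, where 9384 of 24003 genes passed. The columns of a line are not independent cultures of it, and the kinds of RNA also differ by line, with 66.9% to 79% of the counts in protein-coding genes in the CUTLL1 hairpin columns and 93% to 94.1% in CEM. Line and RNA makeup cannot be told apart.

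**Figure D4:**
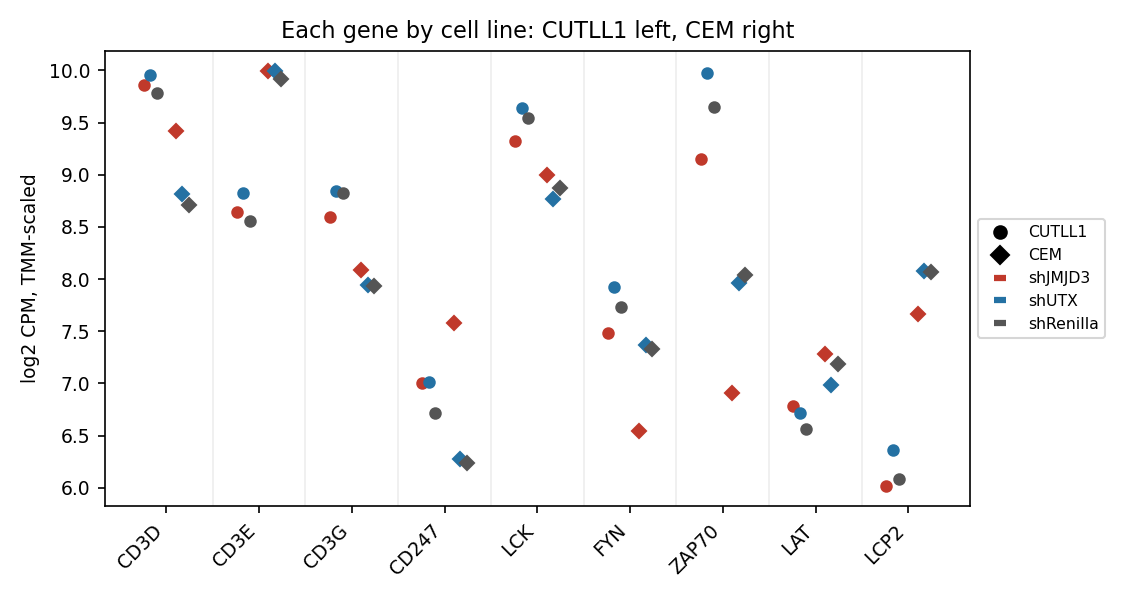
TMM-scaled log2 CPM of each gene in the 3 hairpin columns of CUTLL1 (circles, left) and CEM (diamonds, right), using the larger CUTLL1 shRenilla column. Only for CD247 do the points of the lines overlap, and ZAP70 and LCP2 lie furthest apart in opposite directions. The share of all genes without overlap was not counted.

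The order of the genes within a column, per kilobase of the principal transcript, differed between the lines in the CD3 chains. That order depends on the length used, and which transcripts these cells use was not measured. All annotated exons of CD3E cover 2844 bases, against 1548 in its principal transcript, and those of CD3D cover 929, against 861. For FYN they cover 7411, against 3628, and for CD247 4034, against 1609. The leading and the lowest gene of a CEM column can therefore change with the length. CD3D led in all CUTLL1 columns, with 896 CPM per kilobase in shJMJD3 and 1097 in shUTX, against 941 in the larger shRenilla column. In CEM, CD3E led in shUTX (763, with CD3D at 610) and in shRenilla (759, with CD3D at 589), but CD3D led in shJMJD3 (776, with CD3E at 640). Per kilobase, CD3D was 4.17 times CD3E in shJMJD3 and 3.95 times in shUTX, against 4.16 times in shRenilla, in CUTLL1. In CEM that quotient was 1.21 in shJMJD3 and 0.799 in shUTX, against 0.777 in shRenilla. CD247 was 0.181 times CD3E in shJMJD3 and 0.0734 times in shUTX, against 0.0751 times in shRenilla, in CEM. LCP2 was the lowest of the 9 in each CUTLL1 hairpin column (11.6 to 16.6 CPM per kilobase), whereas FYN was the lowest in each CEM column (25.1 to 53.8). LCK and ZAP70 lay close in CUTLL1, where LCK was 1.29 times ZAP70 in shJMJD3 and 0.91 times in shUTX, against 1.07 times in shRenilla. In CEM, LCK was 4.93 times ZAP70 in shJMJD3 and 2.02 times in shUTX, against 2.04 times in shRenilla. CD247 and LAT were neighbours in the CUTLL1 order and differed little, at 60.5 and 59.7 CPM per kilobase in shRenilla.

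As the 6 columns moved around their line means, some of the 9 genes ran together and others apart. Pearson's r was 0.98 for CD3D with CD247, 0.99 for FYN with ZAP70 and 0.95 for ZAP70 with LCP2, but -0.88 for CD247 with FYN. CD3G went with LCK at 0.94. With only 6 columns from 2 lines these values describe the columns and no more. Among 13711 genes with at least 50 counts in every column, 2484 had an r over 0.9 with CD3D and 2320 with CD247. For FYN they were 2125 and for ZAP70 1681, so the pattern of each was common. In each of these the CEM shJMJD3 column lay furthest from its line mean, so it weighs most in r. The number was 1439 for LCP2, 374 for CD3E, 291 for LCK, 288 for CD3G and 128 for LAT. The nearest was RAD54B for CD3D and ZNF3 for ZAP70.

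Genes that work beside the 9 were counted from 7 lists of 80 genes in all. The shares of all genes given above for shJMJD3 against shRenilla, 22.4% higher and 23.9% lower in CEM and 8.63% higher and 7.23% lower in CUTLL1, are the background of each count, and with so few genes a list no count is read as particular to it. Of 6 genes for kinases, an exchange factor and a phospholipase, the JMJD3 hairpin column of CEM was higher by that fold for 2 and lower for 1, and that of CUTLL1 was higher for 1. TEC, a cytoplasmic tyrosine kinase, had 31.1 CPM in shJMJD3, against 6.31 CPM in shRenilla, in CEM (log2 ratio 2.61) and 2.47 CPM in shJMJD3, against 1.67 CPM in the larger and 2.49 CPM in the smaller shRenilla column, in CUTLL1 (0.72 to the larger). VAV1, the exchange factor that LCP2 recruits, was higher in CEM, at 0.88, and near its control in CUTLL1, at 0.09.

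Of 13 adaptors and scaffolds, 5 were higher and 2 lower in CEM, and 2 higher and 0 lower in CUTLL1. THEMIS, a thymocyte protein that binds the LAT complex, had 245 CPM in shJMJD3, against 55.1 CPM in shRenilla, in CEM (log2 ratio 2.46), and 335 CPM in shJMJD3, against 240 CPM in the larger and 339 CPM in the smaller shRenilla column, in CUTLL1 (0.64 to the larger). THEMIS was also higher with the UTX hairpin in CUTLL1, at 539 CPM in shUTX, against 339 CPM in the smaller shRenilla column (0.71), but not in CEM (-0.22). SKAP1, an adaptor of integrin activation, had 84 CPM in shJMJD3, against 56.8 CPM in shRenilla, in CEM (0.87), and 8.16 CPM in shJMJD3, against 3.37 CPM in shRenilla, in CUTLL1 (1.43). THEMIS and SKAP1 were named for being higher in both lines, and other genes of the list stood lower. With the JMJD3 hairpin SH2D2A had a log2 ratio to shRenilla of -1.44 in CEM and -0.51 in CUTLL1, and SH3BP2 had -1.17 and -0.46. SH3BP2 was the list's furthest down in CUTLL1 with the UTX hairpin, at -0.39.

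Of 19 genes that restrain or otherwise regulate the receptor signal, 3 were higher and 3 lower in CEM, and 1 higher and 0 lower in CUTLL1. The list medians were -0.02 in CEM and 0.04 in CUTLL1. CD5, a surface brake on the receptor, was higher in CEM at a log2 ratio of 1.36 and at 0.01 in CUTLL1, whereas PTPN22, a phosphatase that acts on LCK and ZAP70, was at -1.08 in CEM and -0.24 in CUTLL1. Of the calcium, Ras and NF-kB branches, 3 of 16 were higher and 3 lower in CEM, and 0 of 15 measured in CUTLL1. Of the accessory and costimulatory receptors, 2 of 5 measured were higher and 2 lower in CEM, and 1 higher and 1 lower in CUTLL1. PDCD1, the inhibitory receptor PD-1, had 0.683 CPM in shJMJD3, against 1.75 CPM in shRenilla, in CEM (-1.02), and 24.6 CPM in shJMJD3, against 48.3 CPM in shRenilla, in CUTLL1 (-0.82). CD27, a costimulatory receptor, went opposite ways, at 2.59 in CEM and -0.38 in CUTLL1. With the UTX hairpin CD27 had a log2 ratio of 0.96 in CUTLL1 and 0.29 in CEM.

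Of 10 genes that T cells induce after receptor engagement, 7 were at least 1.5-fold lower in shJMJD3 than in shUTX in CUTLL1 and 0 higher (median log2 ratio -0.83, against -0.12 for all genes, of which 10.2% were that much lower). In CEM 2 of 8 measured were lower in shJMJD3 than in shUTX and 0 higher, with a median of 0.25, where 23.3% of all genes were lower and 22.2% higher. In CUTLL1 shUTX 3 of the 10 were higher than in shRenilla and 0 lower (median 0.54), against 3.5% and 2.27% of all genes. In CUTLL1 shJMJD3 1 was higher and 0 lower than in shRenilla (median 0.06), against 8.63% and 7.23% of all genes. These CUTLL1 comparisons share columns with the first. In CEM shUTX 1 of 8 was higher and 1 lower than in shRenilla (median 0.08), against 3.72% and 3.73% of all genes. EGR1, an early response transcription factor, had 53.6 CPM in shUTX, against 31.4 CPM in the smaller shRenilla column, in CUTLL1 (0.81), and 88.3 CPM in shUTX, against 50.1 CPM in shRenilla, in CEM (0.88). With the JMJD3 hairpin EGR1 had 25.5 CPM, against 50.1 CPM in shRenilla, in CEM (-0.66) and 24 CPM, against 19.1 CPM in shRenilla, in CUTLL1 (0.48). NR4A3, a nuclear receptor of the same response, had a log2 ratio of shUTX to shRenilla of 0.57 in CUTLL1 and -0.63 in CEM. In CEM, 2 of 8 measured genes of the list were lower with the JMJD3 hairpin and 0 higher (median -0.02), EGR3 with 2 counts in shJMJD3, against 67 counts in shRenilla, furthest (log2 ratio -3.47, interval -7.26 to -2.28).

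Of 10 relatives of the 9 genes that serve other blood cells, 3 were higher and 1 lower with the JMJD3 hairpin among 5 measured in CEM, and 2 higher and 2 lower among 8 measured in CUTLL1. SYK, the relative of ZAP70 that B cells and myeloid cells use, had 8.87 CPM in shJMJD3 and 11.3 CPM in shUTX, against 15.2 CPM in the larger shRenilla column, in CUTLL1. In CEM, SYK had 0 counts in all 3 columns, which allows up to 0.0427, 0.0424 and 0.0288 CPM in shJMJD3, shUTX and shRenilla (3 counts per column), so the lowest CUTLL1 column was at least 208-fold higher than that limit. LAT2, the relative of LAT in B cells and mast cells, had 69.8 CPM in shJMJD3, against 13.6 CPM in shRenilla, in CEM (log2 ratio 2.67) and 1.78 CPM in shJMJD3, against 2.15 CPM in shRenilla, in CUTLL1 (-0.12). LYN, a Src family kinase of B cells, had 30 counts in shJMJD3, against 212 counts in shRenilla, in CUTLL1 (-2.05), and BLNK, the B cell counterpart of LCP2, had 69 counts, against 26 counts (2.03). Both ratios depend on the control column, since LYN had 0.172 CPM in shJMJD3, against 0.822 CPM in the larger and 0.409 CPM in the smaller, and BLNK had 0.396 CPM, against 0.101 CPM in the larger and 0.173 CPM in the smaller. In CEM the B cell marker list summed to 47.6 CPM in shJMJD3 and 73.6 CPM in shUTX, against 83.3 CPM in shRenilla, and CD79A made up 34.4 CPM of it in shJMJD3 and 64.5 CPM in shUTX, against 74.7 CPM in shRenilla. The labels name only CEM cells for these columns, and which cells carried this RNA was not measured.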

How the data were processed

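RNA was sequenced as 50-nt single reads from dUTP libraries after poly(A) selection or ribosomal RNA depletion, per the labels' protocols, which do not say which sample had which. CASAVA, TopHat and the build hg19 are named in the submitters' processing notes, without versions. How reads were counted, and whether by strand, no source used here gives. The authors deposited raw counts per gene, 1 column per hairpin and line, in 6 tables made with DEGseq. Per the file headers, the tables also hold the authors' log2 ratios, z scores and p-values with q-values, of which only the p-value mark is quoted. Replicates of a group share their tables in the labels, so each column was treated as pooled.

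CPM was computed from column totals. Log2 ratios used edgeR's TMM and a prior count of 2, with exact binomial 95% intervals, and genes with 50 counts in either column entered the background. Across columns, edgeR 4.0.16 (R 4.3.3) quasi-likelihood tests with filterByExpr had the line (or hairpin) as a block. With all columns they leave 2 residual degrees of freedom, for hairpins and for lines alike, and fewer with a hairpin left out. Their p-values rest on how far the hairpin differences disagree between the lines, not on the spread between cultures. DESeq2 1.42.0, other scalings, filters, prior counts, folds and control columns were tried, and the edgeR fit was tested on simulated data. The length behind a level per kilobase is that of the principal transcript in GENCODE release 29. Named beyond the 9 genes were the targets, list genes at least 1.5-fold apart the same way in both lines, and those furthest up or down per line. VAV1, CD5, PTPN22, SYK and SH2D2A, and CD27 and SH3BP2 with shJMJD3, were added after their values were seen. The 9 genes and the lists were chosen with earlier results of these data known.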

Additional observations from a re-analysis of the deposited data

Results flagged for a closer look

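CD3D stood on opposite sides of 0 in the lines when shJMJD3 was set against shUTX, at -0.11 in CUTLL1 (95% interval -0.12 to -0.09) and 0.59 in CEM (0.57 to 0.61) on the log2 scale. The median of all genes in that comparison was -0.12 in CUTLL1 and -0.01 in CEM. The difference between the lines was not tested, since each ratio rests on 1 column per hairpin. With column totals in place of TMM the ratios of CD3D shift by -0.19 in CUTLL1 and by -0.25 in CEM, which leaves their sides as they are.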

How the results depend on the processing

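No paired analysis was possible because the deposited columns carry no replicate numbers, and for the same reason no single replicate could be left out. With column totals the count of the 9 genes at least 1.5-fold apart in CUTLL1 became 1 for shJMJD3 against shRenilla (0 with TMM) and 2 for shJMJD3 against shUTX (1 with TMM). At a fold of 2 it was 0 for shJMJD3 against shUTX in CUTLL1, and 2 in CEM (4 at 1.5-fold) both against shRenilla and against shUTX. Between CUTLL1 and CEM the number of the 9 called was 8 with DESeq2 (5 with edgeR), and 2 to 8 when 1 hairpin was left out. Over all genes it was 11294 with DESeq2 (8835 with edgeR), and 2004 to 10304 when 1 hairpin was left out. DESeq2 size factors, a prior count of 0.5 and no filter kept each of the counts of the 9 genes within 1.5 times.

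Log2 ratios near 0 changed sign. For shJMJD3 against shRenilla across lines, CD3E became -0.16 and LAT -0.08 with column totals, and CD3E -0.01 with the smaller CUTLL1 shRenilla column. For shUTX against shRenilla, ZAP70 became 0.01 and LCP2 0.01 with DESeq2, CD3D -0.03, CD3E -0.02 and CD247 -0.01 with column totals, and CD3D -0.02 and CD3E 0.00 with no filter. With the larger shRenilla column they were 0.01 for CD3G, 0.01 for LCK, 0.11 for FYN, 0.12 for ZAP70 and 0.14 for LCP2. For shJMJD3 against shUTX, LAT became -0.04 with column totals, and CD3G 0.02 and LCK 0.02 with the smaller shRenilla column. Between CUTLL1 and CEM, CD247 became -0.09 with column totals, and with 1 hairpin left out it ran from -0.06 (without shUTX) to 0.64 (without shJMJD3). The cause of these changes was not tested. Depth did not limit the 9 genes, whose counts in every column leave narrow intervals, but without replicate columns the spread between cultures is unknown.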
